A study of Zea mays with 6 samples.

Results

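The 4 maize genes described here encode parts of the translation machinery: the ribosomal proteins RPL19 and RPL10, the acidic ribosomal protein arpp1a and the elongation factor elfa3. They were taken by symbol or synonym from the platform annotation and the RefSeq gene table, where they are LOC542284 (RPL19), LOC542298 (RPL10), LOC542719 (arpp1a) and LOC542620 (elfa3). They have 10 probe sets among the 17621 on the array that are no controls (RPL19 1, RPL10 2, arpp1a 2 and elfa3 5), and are 4 of 1108 named genes. Of the 10 probe sets, 9 passed the filter on dim signal. The tissue was the shoot tip, enriched for the apical meristem and with leaf primordia attached, of maize seedlings aged 14 days, all of the inbred B73. DpDf seedlings (short for duplicate-deficient) carried a chromosome from the translocation T5-6b, which gave 3 copies of nearly the whole arm 5S and 1 copy of the tip of chromosome 6. Their wild-type siblings, from selfing of a DpDf plant for each replicate, had 2 copies of both. Each genotype was measured in 3 pools of 8 plants, 1 array per pool. All DpDf plants carry the same translocation, so the duplication and the deficiency cannot be told apart, and plants were sorted by a single marker next to the chromosome 5 break.

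Ribosomes are built from many proteins that are needed in near-equal numbers, and the comparison here is between such genes with an extra copy and partners with 2 copies. RPL19 and RPL10 belong to the large subunit, and in yeast Rpl10 joins late in its assembly. The acidic proteins P1, P2 and the plant-specific P3 form the flexible stalk that receives elongation factors, and elongation factor 1A carries aminoacyl-tRNA to the ribosome. RPL19 and RPL10 lie on the duplicated arm. The gene elfa3 lies far along chromosome 6, outside the deficiency, and has 2 copies. The gene arpp1a lies within the first 6% of chromosome 6, near the deficient tip, and whether it has 1 or 2 copies in DpDf plants is not settled, because the break is given by cytology and a genetic map and not as a position in the genome assembly used.

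One array stood apart. The highest Spearman correlation of wild-type replicate 3 with another array was 0.932, against at least 0.988 among the other 5, and its median intensity was 415.9, against 490.9 to 506.1. Each result is therefore given with and without it. Marker genes were matched by symbol or synonym. Of the 5 named meristem genes 4 passed the filter, as did 7 of 8 leaf primordium and epidermis genes. All 7 of 7 green leaf genes and 4 of 4 vascular genes passed too, beside 60.5% of all probe sets. KN-1 read 9.77 to 10.42 on the log2 scale in DpDf and 9.96 to 10.24 in wild type. The meristem gene fea2 was higher in every DpDf pool (9.23 to 9.285) than in every wild-type pool (7.63 to 9.14), as were 23.2% of all probe sets tested. In the other meristem genes that passed, the groups overlapped. None of these markers was called by limma in either setting. The log2 of the summed signal of the vascular markers was 13.75 to 13.90 in DpDf and 13.59 to 13.71 in wild type. That of the green leaf markers was 15.73 to 15.76 in DpDf and 15.51 to 15.69 in wild type. In both sums the groups did not overlap, with or without wild-type replicate 3. The meristem sum was 13.02 to 13.17 in DpDf and 12.57 to 13.1 in wild type. The leaf primordium and epidermis sum was 13.37 to 13.44 in DpDf and 13.05 to 13.45 in wild type. In these sums the groups overlapped in both settings. The part of tissue makeup in the results below was not tested.

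RPL19, with 3 copies in DpDf, was higher in every DpDf pool than in every wild-type pool, as were 23.2% of all probe sets tested. Its 1 probe set read 12.84, 12.76 and 12.81 on the log2(intensity + 1) scale in the DpDf pools, in order of replicate number, against 12.22, 12.15 and 11.49 in the wild-type pools. The DpDf pools lay within a narrow band and the wild-type spread came from replicate 3. With all 6 arrays the log2 difference (DpDf minus wild type) was 0.85 ± 0.21 (SE), a 1.80-fold ratio, and did not pass the test of limma over all probe sets (adjusted p = 0.329). Without wild-type replicate 3 RPL19 rose by 0.62 ± 0.07, a 1.54-fold ratio (limma adjusted p = 0.0155), where the log2 of 3 copies over 2 is 0.58. That estimate had a 95% interval of 0.45 to 0.79. With the replicate number as a block and without replicate 3 of both groups it was 0.62 again, and no longer called (adjusted p = 0.0887). Probe sets called higher (limma adjusted p under 0.05) made up 0.0281% of those tested over all 6 arrays and 3.07% without wild-type replicate 3, and those called lower 0% and 0.263%. Among 46 genes of the arm RPL19 ranked 5 from the top with all 6 arrays, and 3 from it without wild-type replicate 3. In such pooled tissue, more cells of a type and more RNA per cell cannot be told apart.

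RPL10, the other dosed member, did not differ between genotypes by more than the spread. Its brighter probe set read 14.20, 14.27 and 14.15 in DpDf, against 14.39, 14.21 and 13.96 in wild type. The wild-type pools lay on both sides of the DpDf pools. The difference was 0.02 ± 0.15 with all 6 arrays (SE, limma adjusted p = 0.957) and -0.10 ± 0.09 without wild-type replicate 3 (adjusted p = 0.547). The 95% intervals, -0.33 to 0.36 (all 6 arrays) and -0.30 to 0.11, both end below 0.58. The dimmer probe set read 13.92, 13.90 and 13.89 in DpDf, and 13.90, 13.71 and 13.33 in wild type. Its DpDf values overlapped wild-type replicate 1 alone, and its difference was 0.26 (95% interval -0.14 to 0.65) over all 6 arrays and 0.10 (-0.09 to 0.30) without wild-type replicate 3. The wider of these intervals includes 0.58. By its brighter probe set RPL10 ranked 45 of the 46 arm genes in both settings, whose median differences were 0.56 and 0.40.

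**Figure D1:**
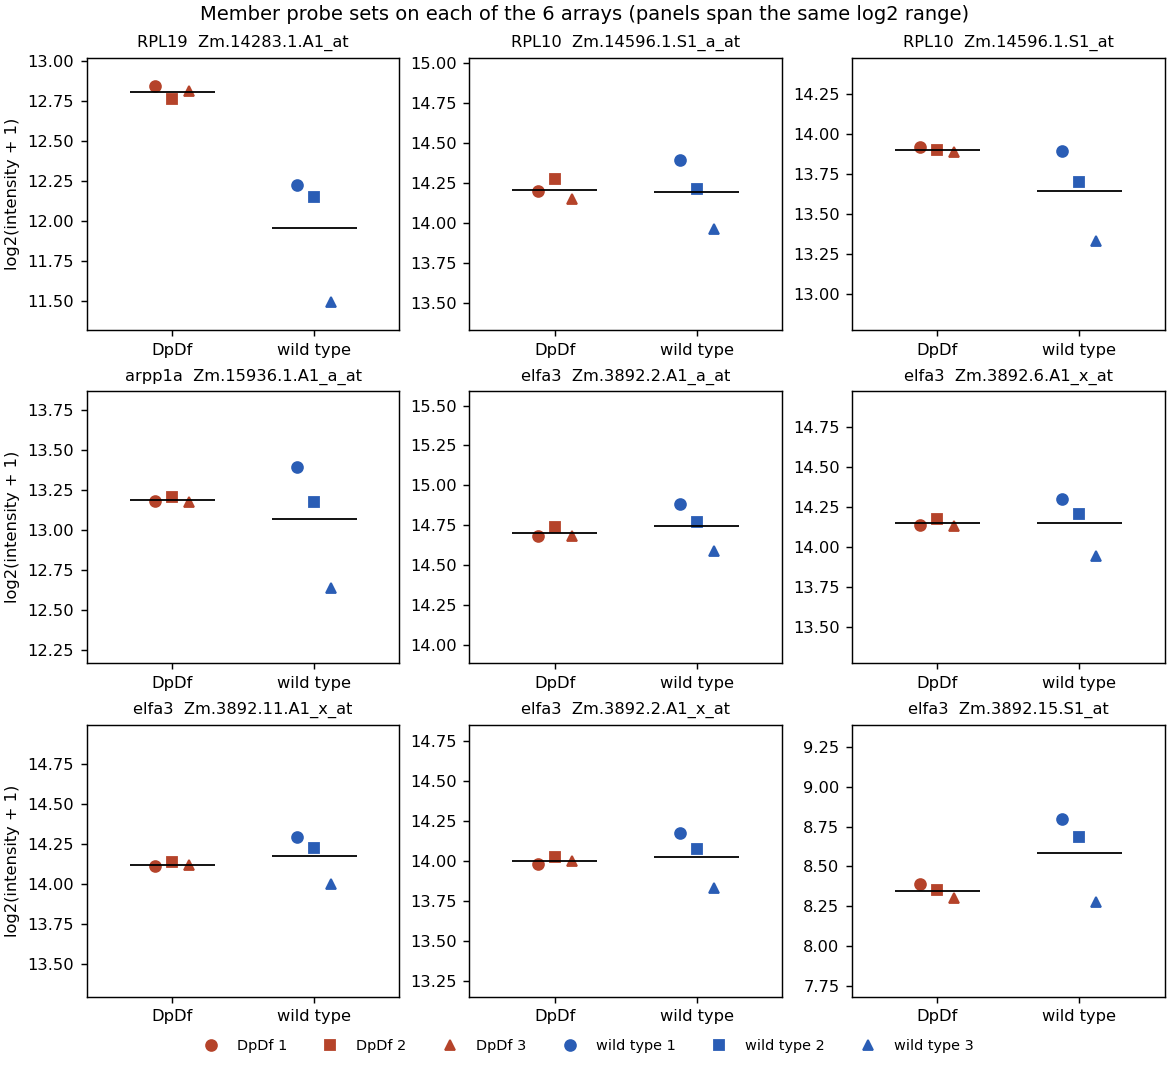
Log2(intensity + 1) of the 9 member probe sets that passed the filter, 1 panel each, with DpDf pools on the left and wild-type pools on the right. Points are arrays, the symbol gives the replicate number, lines are group means, and all panels span the same log2 range. RPL19 alone shows 2 groups that do not overlap, and wild-type replicate 3 is the lowest wild-type value in each panel.

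The elongation factor gene elfa3, with 2 copies in both genotypes, differed little in its bright probe sets. The brightest read 14.68, 14.74 and 14.68 in DpDf, against 14.89, 14.77 and 14.59 in wild type. All DpDf pools lay under wild-type replicates 1 and 2 and above replicate 3. Its difference was -0.05 ± 0.13 with all 6 arrays (SE, limma adjusted p = 0.857) and -0.12 ± 0.07 without wild-type replicate 3 (adjusted p = 0.377). The other 3 bright probe sets behaved alike, with differences of -0.05, -0.02 and -0.003 with all 6 arrays and of -0.14, -0.12 and -0.11 without wild-type replicate 3. Names ending in x_at mark probe sets with probes that can also match other transcripts, and 3 of these 4 bright sets are of that kind, so signal from near-identical elongation factor genes cannot be set apart from that of elfa3.

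The dim probe set of elfa3 read 8.39, 8.35 and 8.30 in DpDf, and 8.80, 8.68 and 8.28 in wild type. It lay near the filter's bounds of 8.28 to 8.33, and under its own array's bound in DpDf replicate 3 and wild-type replicate 3. The difference was -0.24 ± 0.16 with all 6 arrays (SE, limma adjusted p = 0.567), and it fell by 0.39 ± 0.08 without wild-type replicate 3 (adjusted p = 0.0437). With the block and without replicate 3 of both groups that call was lost (-0.37, adjusted p = 0.199). Without wild-type replicate 3 all 5 elfa3 probe sets had every DpDf pool below both wild-type pools, a pattern found in 17.5% of all probe sets tested, and 25.4% had the opposite one. Over all 6 arrays these shares were 3.61% and 23.2%, and no elfa3 probe set showed either pattern. The 5 probe sets share a gene and the same arrays, so they are not independent.

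The elongation factor 1A family holds 3 further named genes, and their probe sets lay on both sides of 0. EF1A on chromosome 9 differed by -0.08 in its brightest probe set and by 0.25 in another (13.39, 13.46 and 13.42 in DpDf, 13.22, 13.12 and 13.20 in wild type, limma adjusted p = 0.131), both without wild-type replicate 3. The same differences were -0.02 and 0.24 with all 6 arrays. In that second probe set the lowest DpDf pool exceeded the highest wild-type pool, as in 23.2% of all probe sets tested over all 6 arrays. The gene elfa2, also on chromosome 6 and with probe sets in the same transcript cluster of the array as elfa3, differed by -0.13 in its brightest probe set, and a dim one (8.93, 8.74 and 8.67 in DpDf, 9.23, 8.95 and 9.20 in wild type) by -0.31 (adjusted p = 0.211). The gene elfa5 differed by -0.10. These 3 differences were -0.09, -0.35 and -0.0023 with all 6 arrays. Over the list of elongation factors, 1 of 13 probe sets tested was called without wild-type replicate 3, the dim one of elfa3, and 0 with all 6 arrays. Of all probe sets tested 3.07% were called higher and 0.263% lower without wild-type replicate 3, and 0.0281% and 0% with all 6 arrays. An unadjusted p under 0.05 was found for 3 of the 13 without wild-type replicate 3, beside 20.3% of all probe sets tested, and for 1 with all 6 arrays, beside 9.77%.

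The array also carries control probe sets for elongation factor 1A at the 3' end, the middle and the 5' end of the transcript, and these showed a difference by position. At the 3' end the signal was 14.29, 14.28 and 14.22 in DpDf, against 14.45, 14.33 and 14.24 in wild type. At the 5' end it was 10.66, 12.43 and 12.58 in DpDf, against 13.35, 13.04 and 12.76 in wild type, and the groups did not overlap. The 3' minus 5' log2 signal of EF1A had a mean of 2.37 (SD 1.09) over the DpDf pools and of 1.28 (SD 0.19) over the wild-type pools, with 3.63 in DpDf replicate 1. Averaged over 5 control transcripts this sign of RNA quality had a mean of 1.66 (SD 0.59) in the DpDf pools and of 0.98 (SD 0.10) in the wild-type pools. An exact permutation test, two-sided, gave p = 0.1, which is the lowest value possible with 3 pools a group. The average over the 5 transcripts was 1.28 to 2.33 in the DpDf pools and 0.89 to 1.075 in the wild-type pools. It separates the genotypes also without DpDf replicate 1, so RNA quality and genotype cannot be told apart here. The place of each member probe set in its transcript is not known, and the part of RNA quality in the values of RPL19, RPL10, arpp1a and elfa3 was not tested. Without both wild-type replicate 3 and DpDf replicate 1, RPL19 differed by 0.60 (limma adjusted p = 0.00807), RPL10 by -0.09 (0.579), arpp1a by -0.09 (0.569), and the dim elfa3 probe set by -0.41 (adjusted p = 0.0232). Calls were more frequent in that setting. Of the 10661 probe sets tested 619 were called higher and 134 lower, against 327 and 28 without wild-type replicate 3 alone.

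**Figure D2:**
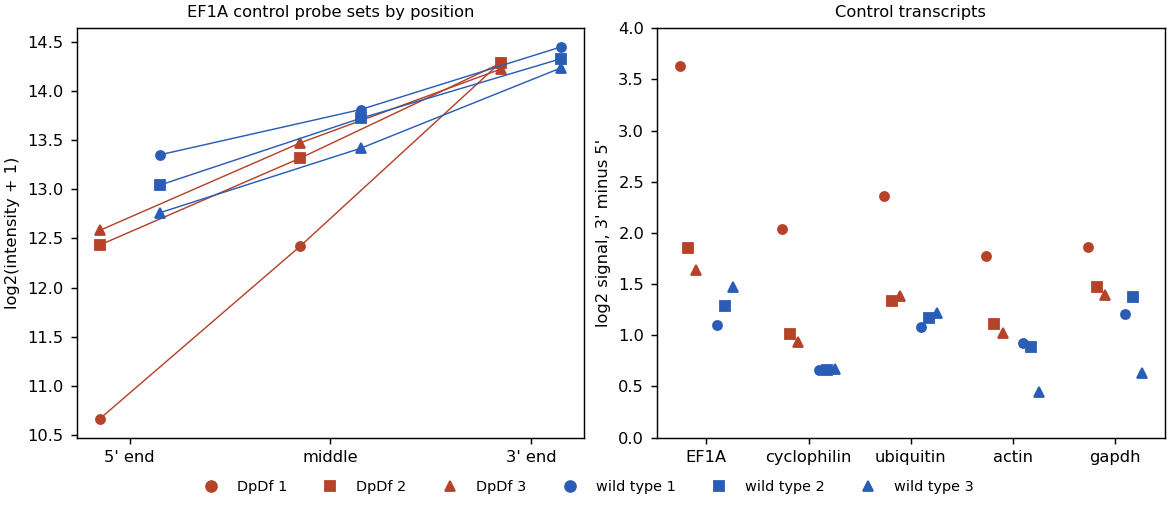
Control transcripts on each array. The left panel gives log2(intensity + 1) of the EF1A control probe sets from the 5' end to the 3' end, 1 line per array, and the right panel the 3' minus 5' log2 signal of 5 control transcripts. DpDf pools are drawn left of wild-type pools, and DpDf replicate 1 has the highest 3' minus 5' value for each transcript, 3.63 for EF1A.

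The stalk protein gene arpp1a, within the first 6% of chromosome 6 and of unsettled copy number in DpDf, showed no difference beyond the spread. Its bright probe set read 13.19, 13.21 and 13.18 in DpDf, and 13.40, 13.18 and 12.64 in wild type. The DpDf pools lay close together in the middle of the wild-type range. The difference was 0.12 ± 0.20 with all 6 arrays (SE, limma adjusted p = 0.762) and -0.10 ± 0.09 without wild-type replicate 3 (adjusted p = 0.544, 95% interval -0.30 to 0.11). The other probe set lay under the filter's bound on all 6 arrays and was not tested. It read 7.81 to 7.93 in DpDf and 7.96 to 8.16 in wild type. All DpDf pools were lower, as in 3.61% of the probe sets that were tested, and at such dim signal no difference is read from it.

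None of the other stalk protein genes was called either. The P3 gene arpp3, with 3 copies in DpDf, read 14.42, 14.34 and 14.35 in DpDf, against 14.29, 14.22 and 13.99 in wild type, in its brighter probe set. The lowest DpDf pool exceeded the highest wild-type pool, as in 23.2% of all probe sets tested. The difference was 0.20 ± 0.13 with all 6 arrays (SE, limma adjusted p = 0.563) and 0.12 ± 0.07 without wild-type replicate 3 (adjusted p = 0.383). The 95% intervals were -0.10 to 0.51 and -0.05 to 0.29, below 0.58. A dimmer arpp3 probe set did not overlap between groups either and differed by 0.24 (-0.12 to 0.59) and 0.10 (-0.07 to 0.28), and the wider of these intervals includes 0.58. The P2 genes of 2 copies, arpp2a-2, arpp2a-3, arpp2b and rpp2a-4, differed by -0.19, -0.18, 0.06 and -0.11 without wild-type replicate 3, and by 0.10, 0.17, 0.21 and 0.07 with all 6 arrays.

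To ask whether the dosed genes left balance with 2-copy translation genes, each array was set to the mean of 23 translation genes of 2 copies, which cancels shifts that these genes share, and limma was refitted over all probe sets. On this scale RPL19 read -0.13, -0.18 and -0.09 in DpDf, against -0.82, -0.81 and -1.07 in wild type, in log2 units relative to that mean. Relative to the 2-copy translation genes RPL19 was higher by 0.77 ± 0.11 with all 6 arrays (SE, limma adjusted p = 0.0436) and by 0.68 ± 0.07 without wild-type replicate 3 (adjusted p = 0.0101). The 95% intervals were 0.52 to 1.02 and 0.51 to 0.85, and both include 0.58. With the replicate number as a block and all 6 arrays the call was lost (adjusted p = 0.152), and without replicate 3 of both groups it held with the block (0.66, adjusted p = 0.029). It was also lost when any single array other than wild-type replicate 3 was left out, with differences of 0.75 to 0.81 and limma adjusted p-values of 0.129 to 0.318. Among the 10638 probe sets tested 0.705% were called higher and 0.0282% lower with all 6 arrays, and 4.7% and 0.226% without wild-type replicate 3.

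RPL10 stayed close to the 2-copy translation genes. Relative to them its brighter probe set read 1.22, 1.33 and 1.25 in DpDf and 1.35, 1.25 and 1.40 in wild type, a difference of -0.07 (95% interval -0.28 to 0.15, limma adjusted p = 0.716) with all 6 arrays. Without wild-type replicate 3 it was -0.03 (-0.22 to 0.15, adjusted p = 0.811). The dimmer probe set lay at 0.95, 0.96 and 0.99 in DpDf, all above 0.85, 0.75 and 0.77 in wild type. Its difference of 0.18 (-0.02 to 0.38, adjusted p = 0.372), or 0.16 (-0.01 to 0.34, adjusted p = 0.23) without wild-type replicate 3, did not pass the test, and on this scale both intervals end below 0.58. Neither probe set of RPL10 was called. How many of all probe sets separate the groups on this scale was not counted.

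RPL19 and the brighter RPL10 probe set were also set against each other directly, a comparison added after the data were seen. The dimmer RPL10 probe set, which differed by 0.26 with all 6 arrays and by 0.10 without wild-type replicate 3, was not used. A ratio to it would differ less between the genotypes. The log2 ratio of RPL19 over RPL10 was -1.35, -1.51 and -1.34 in DpDf, against -2.17, -2.06 and -2.47 in wild type. The groups did not overlap, and how many of all probe sets do so relative to RPL10 was not counted. The ratio was 0.83 ± 0.14 higher in DpDf with all 6 arrays (SE, limma with all probe sets set to RPL10, adjusted p = 0.0669). It was higher by 0.71 ± 0.11 without wild-type replicate 3 (limma adjusted p = 0.00923). With the replicate block and all 6 arrays it was 0.83 ± 0.19 (limma adjusted p = 0.0107). The block thus gave a larger SE than the fit without it, and the smaller p does not mean a more precise estimate. In these fits 0.0281% of probe sets (all 6 arrays) and 4.27% (without wild-type replicate 3) were called higher.

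Ratios among the members are given as values with no test, each gene by its brightest probe set. RPL19 over arpp1a was -0.34, -0.45 and -0.37 in DpDf, against -1.17, -1.03 and -1.15 in wild type. This ratio differed by 0.73, and wild-type replicate 3 lay between the other 2 wild-type pools. RPL19 over elfa3 was -1.84, -1.98 and -1.88 in DpDf and -2.66, -2.62 and -3.10 in wild type. RPL10 over elfa3 was -0.49, -0.47 and -0.54 in DpDf and -0.49, -0.56 and -0.63 in wild type, so the groups overlapped. The ratio of arpp1a over elfa3, both on chromosome 6, was -1.50, -1.53 and -1.51 in DpDf, within the wild-type range of -1.95 to -1.49. Relative to the 2-copy translation genes arpp1a differed by 0.04 (limma adjusted p = 0.863) over all 6 arrays and by -0.03 without wild-type replicate 3, and the brightest elfa3 probe set by -0.13 and -0.07. The dim elfa3 probe set lay at -4.58, -4.59 and -4.60 in DpDf, all below -4.25, -4.27 and -4.29 in wild type. The share of all probe sets with such a separation was not counted on this scale. The difference of the dim probe set was -0.32 ± 0.08 with all 6 arrays (SE, limma adjusted p = 0.16). It was called without wild-type replicate 3 (-0.33 ± 0.07, adjusted p = 0.0468) but not with the block and without replicate 3 of both groups (adjusted p = 0.187).

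**Figure D3:**
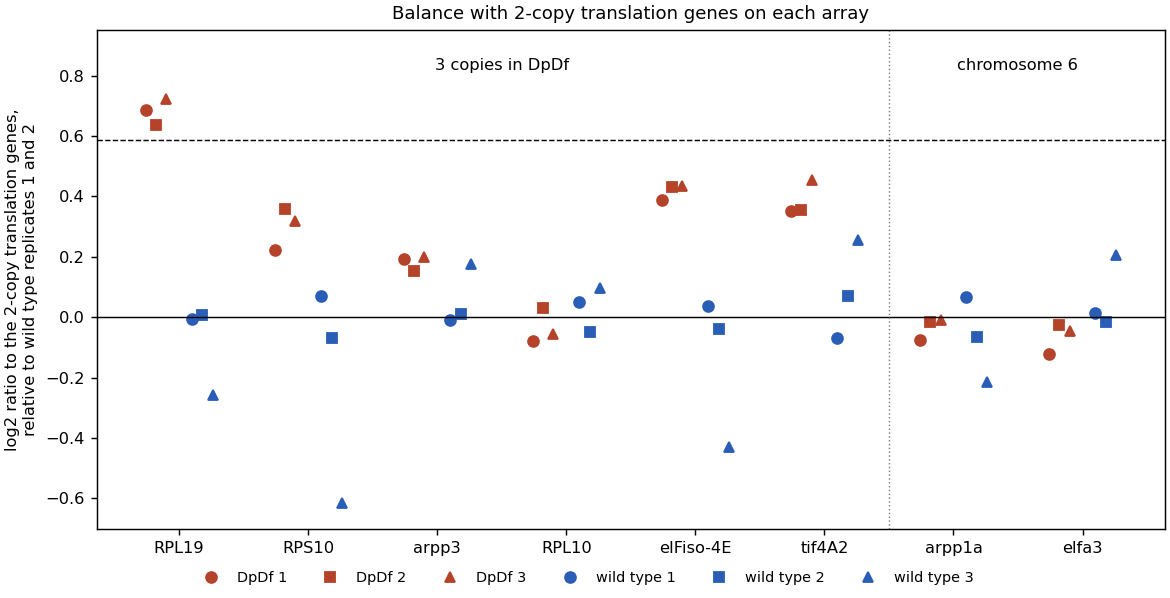
Log2 ratio of 8 genes to the mean of the 2-copy translation genes on each array, drawn relative to the mean of wild-type replicates 1 and 2 (solid line at 0), with the log2 of 3 over 2 copies as the dashed line (0.58). Points are arrays, DpDf left of wild type. RPL19 lies above the dashed line in all 3 DpDf pools, and RPL10, arpp1a and elfa3 lie near 0.

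Beyond the members, 26 further translation genes were named and placed, which with the members makes 17 ribosomal protein, 4 elongation factor and 9 initiation factor genes. They have 51 probe sets, of which 48 passed the filter. With all 6 arrays limma called 0 of the 48, beside 0.0281% of all probe sets tested called higher and 0% lower. In that setting 3 of the 48 were higher and 1 lower at an unadjusted p under 0.05, or 6.25% and 2.08%, beside 8.80% and 0.966% of all probe sets tested. Without wild-type replicate 3 limma called 2 of the 48, RPL19 higher and the dim elfa3 probe set lower. Of all probe sets tested 3.07% were then called higher and 0.263% lower. At an unadjusted p under 0.05, 5 of the 48 were then higher and 4 lower, or 10.4% and 8.33%, beside 13.5% and 6.76% of all probe sets tested. Of the 23 ribosomal protein probe sets tested 1 was then called, and of the 12 initiation factor probe sets 0, with 3 (25.0%) at an unadjusted p under 0.05, beside 20.3% of all probe sets tested. The median difference of the 12 ribosomal protein genes of 2 copies was -0.02 in that setting (0.13 with all 6 arrays), beside 0.02 (0.18) over all probe sets tested.

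The 4 ribosomal protein genes of 3 copies, RPL19, RPL10, arpp3 and RPS10, spanned -0.10 to 0.62 without wild-type replicate 3, with a median of 0.18. With all 6 arrays they spanned 0.02 to 0.85, with a median of 0.40. RPS10, whose product the files assign to no compartment, read 10.77, 10.88 and 10.80 in DpDf and 10.69, 10.46 and 9.53 in wild type. Its difference was 0.24 ± 0.09 without wild-type replicate 3 (SE, limma adjusted p = 0.211) and 0.59 ± 0.29 with all 6 arrays (adjusted p = 0.554), so the size rested on that array.

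In the brighter or sole probe set, both initiation factor genes of 3 copies lay higher in every DpDf pool, as did 23.2% of all probe sets tested. The helicase gene tif4A2, which encodes eIF4A, read 13.59, 13.56 and 13.62 in DpDf and 13.24, 13.29 and 13.08 in wild type, a difference of 0.38 with all 6 arrays (limma adjusted p = 0.403) and 0.32 without wild-type replicate 3 (adjusted p = 0.0603). The gene of the cap-binding protein eIFiso-4E read 12.12, 12.13 and 12.09 in DpDf and 11.84, 11.67 and 10.89 in wild type in its brighter probe set, a difference of 0.64 (adjusted p = 0.479) and 0.36 (adjusted p = 0.0654). Relative to the 2-copy translation genes both passed without wild-type replicate 3, at 0.39 (adjusted p = 0.0468) for tif4A2 and 0.42 (adjusted p = 0.0249) for eIFiso-4E, and neither with all 6 arrays (adjusted p = 0.287 and adjusted p = 0.144). With the block and without replicate 3 of both groups neither was called (adjusted p = 0.162 and adjusted p = 0.113). Relative to the 2-copy translation genes 4.7% of all probe sets tested were called higher without wild-type replicate 3. The dimmer probe set of eIFiso-4E read 11.22, 11.18 and 11.29 in DpDf and 11.20, 11.13 and 10.10 in wild type, so there the groups overlapped. It differed by 0.13 relative to the 2-copy translation genes without wild-type replicate 3 (adjusted p = 0.352).

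Among translation genes of 2 copies other than elfa3 the smallest p-values fell on both sides of 0, and none was called in either setting. Without wild-type replicate 3 the ribosomal protein gene rps13 differed by -0.30 ± 0.11 (SE, limma adjusted p = 0.193), tif5A, an initiation factor 5A gene, by -0.31 ± 0.10 (adjusted p = 0.146), and tif1, listed also as GOS2, by 0.24 ± 0.10 (adjusted p = 0.254). With all 6 arrays they lay at -0.08, -0.22 and 0.26. Of the 23 genes of 2 copies 7 were above 0 and 16 below without wild-type replicate 3, and with all 6 arrays 16 and 7. The median over all probe sets was 0.02 and 0.18 in these settings, and 6 of the 23 genes lay above it in each.

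**Figure D4:**
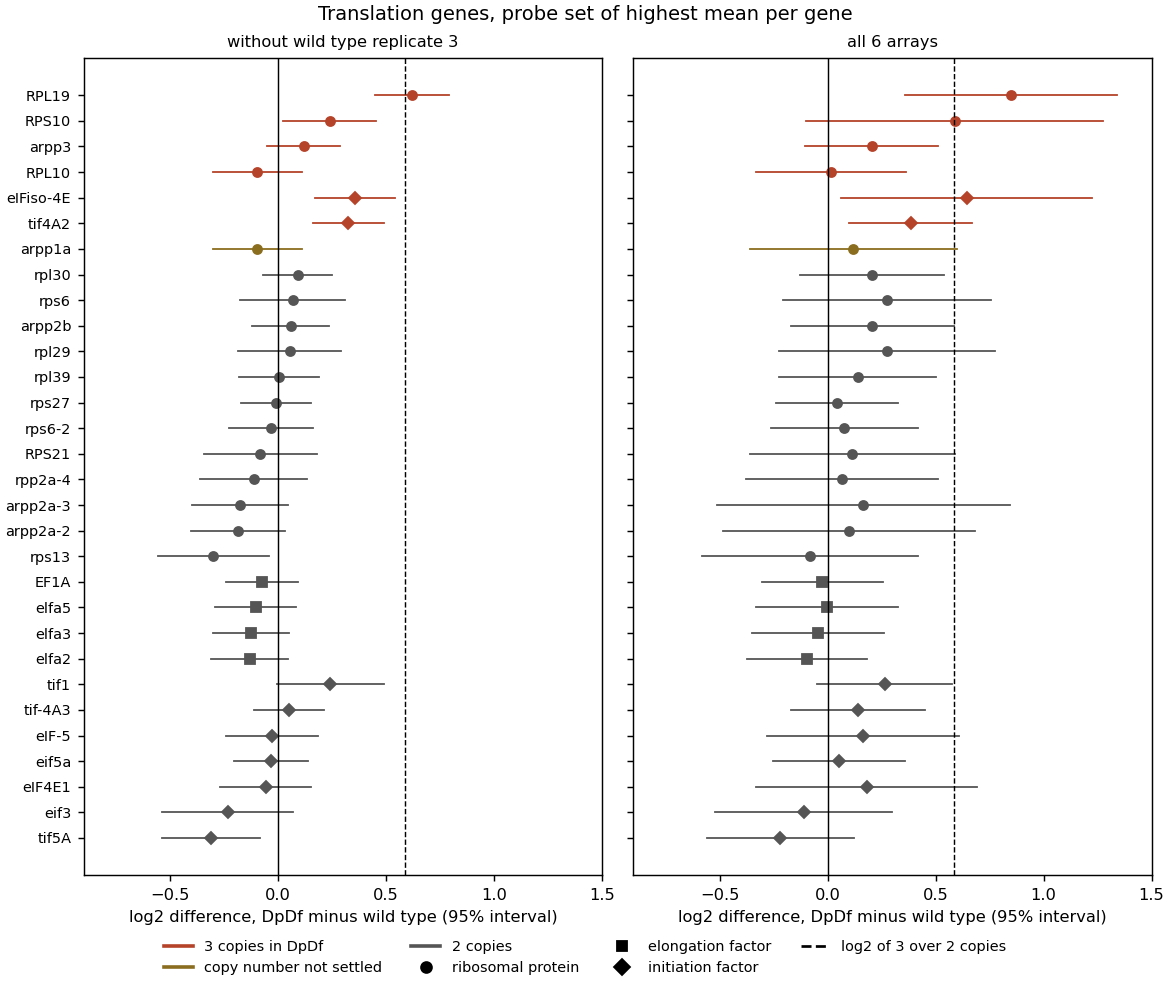
Log2 difference (DpDf minus wild type) with its 95% limma interval for the probe set of highest mean of each of 30 translation genes, without wild-type replicate 3 on the left and with all 6 arrays on the right. Colour gives the copy number and the symbol the list, and the dashed line is the log2 of 3 over 2 copies (0.58). On the left RPL19 is the highest, at 0.62, and RPL10 lies among genes of 2 copies, at -0.10.

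The named genes most alike to each member were found by the root mean square difference between log2 values centred on each probe set's own mean over the 6 arrays, among 819 other named genes. For RPL19 they were sig6 (0.056), ohp2 (0.092) and sqs1 (0.12), all on the duplicated arm, where the median over named genes was 0.39. For RPL10 they were PDC (0.036), CDC5 (0.037) and LOC542610 (0.038), none of them on the arm, beside a median of 0.175. For elfa3 they were PDC (0.028), LOC542510 (0.029) and CNX (0.031), and for arpp1a pdi12 (0.045), magi81248 (0.045) and gs (0.05). The median was 0.19 for each of these 2 members. Likeness here rests on 6 arrays that share the shift of wild-type replicate 3, and is a description.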

How the data were processed

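The authors deposited linear intensity values for 6 Affymetrix maize arrays. GCOS 1.2 and GCRMA are named in the submitters' processing notes, whose text gives neither role nor order here, and the values themselves show a linear scale. Log2(intensity + 1) was used throughout. After removal of 113 controls, the filter asked for a value at or above the array's 40th percentile on at least 3 of the 6 arrays, which 10661 of 17621 probe sets passed. The 2 genotypes were fitted in limma 3.58.1 (R 4.3.3, lmFit, eBayes) without a block, p-values were adjusted by Benjamini-Hochberg over every probe set that passed, and 0.05 was the threshold. The number of arrays limits the precision. The fit was also run on simulated data with independent noise for each probe set. Those data held no shift of a whole array such as that of wild-type replicate 3, and no result here rests on them. Of 1108 gene identifiers 1060 matched the RefSeq table of assembly Zm-B73-REFERENCE-NAM-5.0, used for names, chromosomes and the position of genes along them. Genes in the first 40% of chromosome 5 counted as the arm, those elsewhere outside the first 6% of chromosome 6 as having 2 copies. Ribosomal protein, elongation and initiation factor lists came from symbol patterns, and the probe set of highest mean stood for a gene. Members and lists were chosen with earlier results of these data known.

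Named were all probe sets of the 4 members, list genes that were called or among the 4 of smallest p, further stalk protein genes (arpp2a-3, arpp2b and rpp2a-4, chosen after their values were seen), RPL27A, and the 3 genes of most alike pattern per member. Per the labels, pools of 1 replicate number came from siblings planted as 1 replicate, which pairs them. Their deviations from the group means correlated at 0.0757, -0.164 and 0.195. Intensities of each array came from its own pool of plants, and p-values measure the spread between pools.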

Additional observations from a re-analysis of the deposited data

How the results depend on the processing

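Leaving out wild-type replicate 3 had the widest effect. Calls over all probe sets were 3 with all 6 arrays and 2 to 355 with single arrays left out, the highest without that one, and 753 without both it and DpDf replicate 1. Called ribosomal protein probe sets numbered 0 to 1 and elongation factor probe sets 0 to 1 with single arrays left out, and 1 and 1, with 2 initiation factor probe sets, without both arrays. RPL19 ranged from 0.62 to 0.98 with single arrays left out and was 0.60 without both arrays, past the threshold in that setting and without wild-type replicate 3. Relative to the 2-copy translation genes it ranged from 0.68 to 0.81 with single arrays left out, and it missed the threshold with no filter (0.77, adjusted p = 0.212), quantile normalization (0.73, adjusted p = 0.0915), the replicate block (0.77, adjusted p = 0.152) and centring on all 741 named genes of 2 copies (0.73, adjusted p = 0.0668). RPL19 against the brighter RPL10 probe set ranged from 0.71 to 0.92 with single arrays left out. It passed with the replicate block at 0.83 and without wild-type replicate 3, while the 5 fits without another array missed the threshold (adjusted p = 0.0842 to 0.299). RPL10 changed sign with quantile normalization (-0.016, and to 0.0023 relative to the 2-copy translation genes), with median-centred arrays (-0.17), with the block without replicate 3 of both groups (-0.067) and without both arrays (-0.092), and ranged from -0.10 to 0.12 with single arrays left out. The gene arpp1a did so with median-centred arrays (-0.070), with that block (-0.090) and without both arrays (-0.094), and ranged from -0.10 to 0.28. Relative to the 2-copy translation genes arpp1a turned to -0.046 with that block, -0.014 without both arrays and -0.087 with all 2-copy named genes as centre and wild-type replicate 3 left out, and ranged from -0.034 to 0.11. The bright elfa3 probe sets ranged from -0.14 to 0.011, from -0.12 to 0.023, from -0.12 to 0.051 and from -0.11 to 0.073 with single arrays left out, and lay at -0.24, -0.23, -0.21 and -0.19 with median-centred arrays, none of them called. The cause of these changes was not tested. In the fits with the replicate block no member changed its call beyond those named here and in the results above.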

Other observations

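A further ribosomal protein gene, RPL27A, is named on the array but has no place in the gene table used, so its copy number is not known here and it is in no list above. Its probe set read 13.42, 13.38 and 13.43 in DpDf, against 13.55, 13.47 and 13.06 in wild type, a difference of 0.05 ± 0.16 with all 6 arrays (SE, limma adjusted p = 0.877) and of -0.10 ± 0.07 without wild-type replicate 3 (adjusted p = 0.443).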
